A study of Mus musculus with 12 samples.

Results

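Replication-dependent histone genes encode the linker histone H1 and the core histones H2A, H2B, H3 and H4, the proteins that package newly made DNA. They lie in clusters, and most of their messenger RNAs end in a conserved stem-loop in place of a poly(A) tail, which the protein Slbp binds and which U7 snRNP and the cleavage factors process. Transcription is driven in S phase by Npat, and some of the genes also give polyadenylated transcripts that are known from non-dividing, differentiating cells. The genes described here were all entries of the deposited expression matrix whose Ensembl identifier carries a GENCODE M21 symbol that starts with Hist1h, Hist2h, Hist3h or Hist4h. That rule found 70 of 54104 entries with an Ensembl identifier, 67 protein-coding genes and 3 pseudogenes (Hist1h2aj, Hist1h2al and Hist3h2bb-ps). The clusters on chromosomes 13, 3, 11 and 6 held 56, 10, 3 and 1 of them.

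The study profiled mouse myeloid-derived suppressor cells (MDSCs), a population of immature suppressive myeloid cells known from tumor hosts, by bulk RNA sequencing. The 4 groups were Ly6C tumor, Ly6C spleen, Ly6G tumor and Ly6G spleen, with 3 libraries each. The series names polymorphonuclear and monocytic MDSCs, for which Ly6G and Ly6C are the usual surface markers, and no treatment, genotype, strain, age, tumor model or sorting gate was given in the labels. Nothing in the labels says that the 3 libraries of a group came from separate animals, so p-values measure the spread between these libraries, which may be technical. Values are FPKM (fragments scaled to gene length and to library size) as computed by the authors, so the depth behind a value is unknown and levels of different genes are per length. Changes are differences of log2(FPKM + 1), given with the standard error of a limma model. They understate the change of low genes.

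Total FPKM per library was 331681 to 449309. The clustered histone genes took 0.0703% to 0.166% of it. Tumor libraries carried much lower leukocyte markers than spleen libraries. A list of 20 pan-leukocyte genes summed to 292 to 612 FPKM in Ly6C tumor, 5631 to 6483 in Ly6C spleen, 796 to 1369 in Ly6G tumor and 7336 to 7666 in Ly6G spleen. Ly6g itself was 11.8 to 13.8 FPKM in Ly6C tumor, 131 to 209 in Ly6C spleen, 31.5 to 54.1 in Ly6G tumor and 591 to 717 in Ly6G spleen. Ly6c2 was 6.35 to 8.16, 223 to 272, 5.31 to 7.8 and 170 to 237 FPKM in the same groups, so within each tissue the labels overlapped in it. An 8-gene epithelial list summed to 753 to 1020 FPKM in Ly6C tumor, 0.347 to 0.557 in Ly6C spleen, 446 to 754 in Ly6G tumor and 0.917 to 1.23 in Ly6G spleen. Only 2 of the 8 epithelial genes reached 1 FPKM in at least 3 libraries, and Epcam was listed at 0 in Ly6C tumor. A 9-gene fibroblast list summed to 196 to 369 FPKM in Ly6C tumor, 1.95 to 2.43 in Ly6C spleen, 140 to 336 in Ly6G tumor and 4.15 to 6.41 in Ly6G spleen. Mitochondrial genes took 3.07% to 11.9% of FPKM in tumor libraries and 1.68% to 2.87% in spleen libraries, ranges that did not overlap. Every tissue comparison below therefore compares libraries that also differ in markers of cell type and in mitochondrial share, and the part of these in the histone values was not tested. In bulk RNA, fewer cells of a type and less RNA per cell cannot be told apart.

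Copies of 1 histone are close to identical, which limits how far a single gene's value can be trusted. The 13 H4 genes encode 1 protein, the 12 H3 genes 2 proteins, the 18 coding H2A genes 9, the 18 coding H2B genes 11, and the 6 H1 genes 6. The share of a gene's 100-base stretches found in no other annotated transcript had a median of 99.6% for H1, 30.1% for H2A, 65.3% for H2B, 50.3% for H3 and 81.0% for H4 genes. How fragments that match several copies were assigned is not given in the sources used here. Of the 53 genes that reached 1 FPKM in at least 3 libraries and were tested, 26 had under 50% such stretches. In addition, 26 of the 70 genes overlap another annotated gene, 7 of them on the same strand, and whether counting used the strand is not given either.

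The stem-loop was searched in the annotated transcripts, on the gene's strand, as 16 bases that read GGCNCTT, then NTN, then AGNGCC, where N is any base. It was found in 44 of the 70 genes, and in 57 of 55450 annotated genes in all (0.103%). A search that found no match says only that these letters are not in the annotated transcript. The sites of the genes on which the results turn follow, 5′ to 3′ on the gene's strand in GRCm38, with the stem-loop in capitals between 5 flanking bases on each side.
Hist1h1c, chr13:23739507-23739532, plus strand: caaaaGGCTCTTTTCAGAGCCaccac
Hist1h2bg, chr13:23571838-23571863, plus strand: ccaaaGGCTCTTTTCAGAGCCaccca
Hist1h2bk, chr13:22036295-22036320, plus strand: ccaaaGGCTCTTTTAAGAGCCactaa
Hist1h2ad, chr13:23574890-23574915, plus strand: acaaaGGCTCTTTTCAGAGCCatcca
Hist3h2a, chr11:58955167-58955192, plus strand: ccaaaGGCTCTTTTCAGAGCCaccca
Hist2h2aa1, chr3:96246027-96246052, plus strand: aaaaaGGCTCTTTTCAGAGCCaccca
Hist1h3g, chr13:23535884-23535909, plus strand: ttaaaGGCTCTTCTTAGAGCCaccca
Hist1h4i, chr13:22040961-22040986, minus strand: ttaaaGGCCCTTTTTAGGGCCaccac
Hist1h4n, chr13:21831793-21831818, minus strand: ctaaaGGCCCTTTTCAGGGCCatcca

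All 10 H4 genes with a match carried GGCCCTT in the stem-loop where all matched H1, H2A, H2B and H3 genes carried GGCTCTT. The stem-loop did not separate genes that were higher in tumor from genes that were lower: Hist1h2bk (higher in both tissue comparisons) and Hist1h4i (lower in both) each have it. Annotated transcripts ran more than 120 bases past the stop codon in 28 of the 67 coding genes, as they do for Hist1h1c (880 bases), Hist1h4i (376) and Hist3h2a (1700), and in 23 of the 28 the stem-loop lies inside that longer annotated 3′ end. The other 5, Hist1h2bc (742 bases), Hist1h2bq, Hist1h2br, Hist2h2be and Hist1h4j, had no match.

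Promoter windows, 250 bases before to 50 after the start, were matched in RefSeq (GRCm38.p6) for 61 of the 70 genes and searched on both strands. The CCAAT box (CCAAT) was in all matched windows of H1 (5), H2A (18), H2B (16) and H3 (10) genes and in 3 of 12 H4 windows, against 37.4% of all 32851 windows. The letters of the TATA box (TATAAA) were in 34 of 61 (55.7%), against 13.6% of all. No set distance from the start was required, so a marked TATAAA need not be that gene's TATA box. The octamer ATTTGCAT, known from H2B promoters, was in 7 of 18 H2A and 6 of 16 H2B windows and in none of the others, against 1.74% of all. The H1 box AAACACA was in 4 of 5 H1 windows, against 7.18% of all. Windows are shown for the most abundant gene, for an H2B gene that was higher in tumor and for the H4 gene that was lower in tumor, with these motifs and their complements in capitals.
Hist1h1c, chr13:23738557-23738856, plus strand: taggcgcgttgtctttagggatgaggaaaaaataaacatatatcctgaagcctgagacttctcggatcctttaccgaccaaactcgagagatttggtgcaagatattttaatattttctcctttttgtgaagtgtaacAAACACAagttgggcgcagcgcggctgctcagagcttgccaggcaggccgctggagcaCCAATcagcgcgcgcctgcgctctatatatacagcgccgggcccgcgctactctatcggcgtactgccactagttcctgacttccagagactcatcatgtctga
Hist1h2bk, chr13:22035571-22035870, plus strand: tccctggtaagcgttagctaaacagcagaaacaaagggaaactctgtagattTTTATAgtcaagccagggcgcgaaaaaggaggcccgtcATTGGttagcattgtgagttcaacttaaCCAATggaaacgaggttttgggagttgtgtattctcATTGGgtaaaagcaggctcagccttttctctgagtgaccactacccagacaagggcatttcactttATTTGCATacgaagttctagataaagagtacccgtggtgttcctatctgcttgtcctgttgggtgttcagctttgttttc
Hist1h4i, chr13:22041313-22041612, minus strand: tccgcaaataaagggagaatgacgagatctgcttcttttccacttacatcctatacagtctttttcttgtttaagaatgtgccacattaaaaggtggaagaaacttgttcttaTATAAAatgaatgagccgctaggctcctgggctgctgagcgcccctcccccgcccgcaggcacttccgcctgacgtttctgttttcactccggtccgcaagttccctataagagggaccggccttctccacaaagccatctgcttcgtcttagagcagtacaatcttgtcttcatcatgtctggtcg

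Most clustered histone genes were low. Of the 53 tested genes, 46 averaged under 5 FPKM over the 12 libraries, and 6 averaged at least 10. The 17 genes that were not tested reached at most 2.23 FPKM in any library. Among them were the genes of the testis-specific histones, with Hist1h2aa listed at 0 in all 12 libraries, Hist1h2ba at 0 to 0.27 FPKM and Hist1h1t at 0 to 0.826 FPKM.

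Hist1h1c (ENSMUSG00000036181, chr13:23738808-23740367), which encodes the linker histone H1.2, was the most abundant. Its levels were 207, 212 and 187 FPKM in Ly6C tumor and 198, 129 and 116 FPKM in Ly6C spleen. In Ly6G libraries they were 234, 230 and 226 FPKM in tumor and 176, 111 and 192 FPKM in spleen. The Ly6C groups overlapped, while every Ly6G tumor library lay above every Ly6G spleen library. The change was 0.48 ± 0.22 in Ly6C (limma, Benjamini-Hochberg adjusted p = 0.0683) and 0.56 ± 0.22 in Ly6G (adjusted p = 0.0391). Under median-of-ratios factors the Ly6G change was 0.05 (adjusted p = 0.854), and the call was also lost with no filter, with quantile normalization and with equal sums without S100a8 and S100a9 (adjusted p = 0.0692 to 0.115). It was lost without Ly6C tumor 1, Ly6G tumor 1, 2 or 3, or Ly6G spleen 2, with adjusted p of 0.0518 to 0.18. The Ly6C change passed without Ly6C spleen 1 or Ly6G spleen 2 (adjusted p = 0.0101 and 0.0311).

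Hist1h2bc (ENSMUSG00000018102, chr13:23684199-23692908), an H2B gene, showed the largest rise of any clustered histone gene that passed in Ly6C. Its levels were 71.4, 84.5 and 69.9 FPKM in Ly6C tumor and 24.5, 21.9 and 14.2 FPKM in Ly6C spleen. They were 59.2, 64.2 and 52.7 FPKM in Ly6G tumor and 29.6, 25.7 and 46.5 FPKM in Ly6G spleen. The tumor libraries lay above the spleen libraries of the same label in both cases, and the change was 1.88 ± 0.23 in Ly6C (adjusted p = 1.196e-05) and 0.81 ± 0.23 in Ly6G (adjusted p = 0.00646). The Ly6G change of Hist1h2bc was 0.31 under median-of-ratios factors (adjusted p = 0.182). The next most abundant, Hist1h2bg (H2B), had 21.9, 25.6 and 22.3 FPKM in Ly6C tumor and 36, 32.3 and 24.4 FPKM in Ly6C spleen. In Ly6G it had 22.6, 19.9 and 18 FPKM in tumor and 16.5, 14.8 and 15 FPKM in spleen. Ly6C spleen was thus the highest of the 4 groups for Hist1h2bg, and its lowest library lay within the range of Ly6C tumor.

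The other H1 genes were far lower than Hist1h1c. Hist1h1e (H1.4) averaged 2.84 ± 0.80 FPKM in Ly6C tumor and 1.67 ± 1.36 in Ly6C spleen, and 2.87 ± 0.29 in Ly6G tumor and 0.899 ± 0.23 in Ly6G spleen (SD, n = 3 each). Hist1h1b (H1.5) averaged 2.14 ± 0.53 FPKM in Ly6C tumor and 1.95 ± 0.33 in Ly6C spleen, and 2.32 ± 0.12 in Ly6G tumor and 1.06 ± 0.33 in Ly6G spleen. Hist1h1d (H1.3) averaged 1.25 ± 0.31 FPKM in Ly6C tumor and 0.332 ± 0.037 in Ly6C spleen, and 1.26 ± 0.29 in Ly6G tumor and 0.215 ± 0.048 in Ly6G spleen. Of these 3 genes Hist1h1d passed under both labels, and Hist1h1e and Hist1h1b under Ly6G, where Hist1h1e was lost without Ly6G tumor 1 or Ly6G spleen 3 (adjusted p = 0.0536 to 0.0607) and under median-of-ratios factors, quantile normalization or a pseudocount of 0.1 (adjusted p = 0.0762 to 0.204). In Ly6C, Hist1h1e passed without Ly6C spleen 1 or 2 (adjusted p = 0.0337 and 0.0414). The Ly6G change of Hist1h1b was 0.19 under quantile normalization (adjusted p = 0.326).

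**Figure D1:**
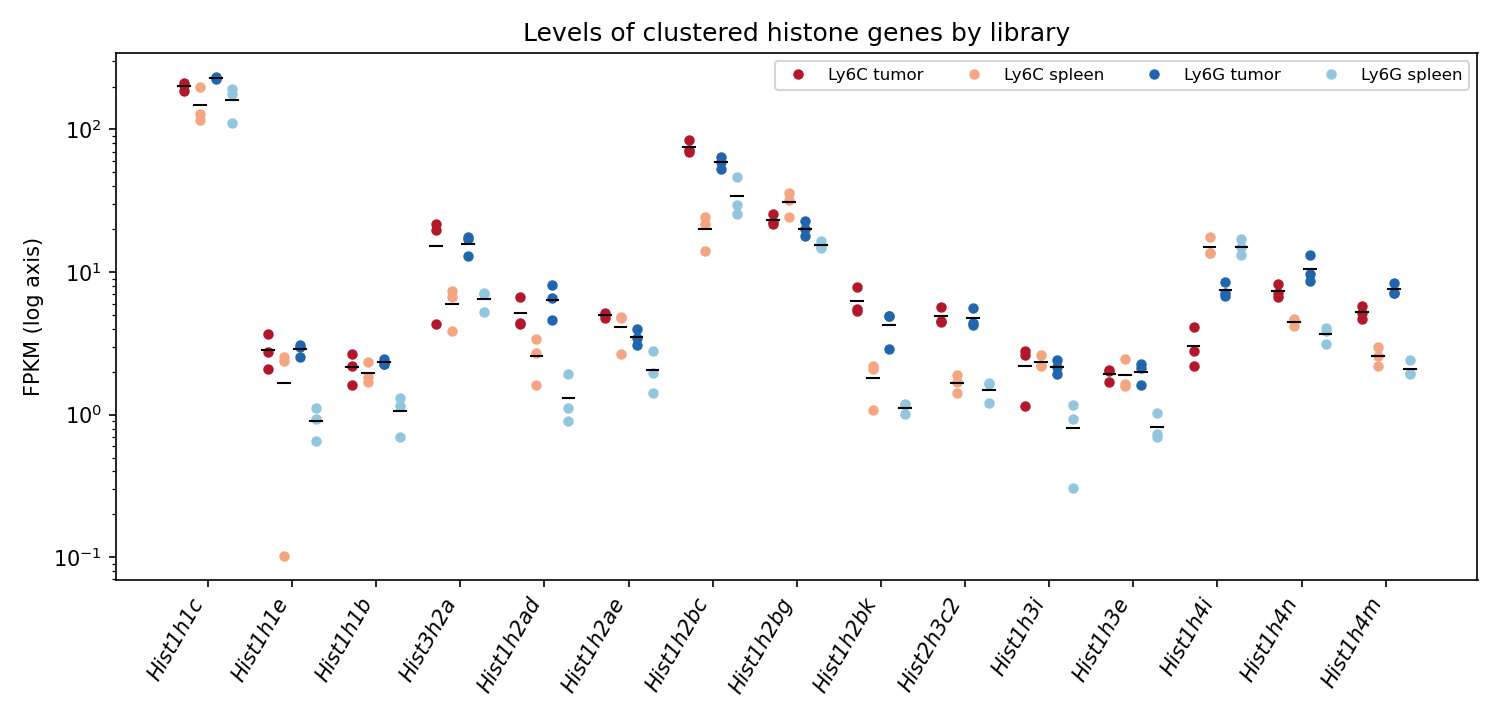
FPKM of the 3 most abundant tested genes of each histone class (H1, H2A, H2B, H3 and H4, left to right; Hist2h2aa1 left out) in each library, on a log axis. Points are libraries, short black lines are group means, and Hist1h1c lies near 200 FPKM while most other genes lie under 10.

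The Hist2 locus on chromosome 3 gave values that switched between libraries, within both tumor groups and between the spleen groups. Hist2h2aa1 (H2A, chr3:96245497-96246082), none of whose 100-base stretches is its own, was listed at 0, 86.1 and 65.9 FPKM in Ly6C tumor and at 0 in all 3 Ly6C spleen libraries. It was listed at 77.3, 98 and 0 FPKM in Ly6G tumor and at 83.5, 72.4 and 109 FPKM in Ly6G spleen. The overlapping transcript Gm20634 was listed at 0 in the same 5 libraries and at 1.85 to 4.83 FPKM in the other 7. Hist2h3c1, an H3 gene that also overlaps Gm20634, was at 1.28 to 4.84 FPKM in those 5 libraries and at most 0.172 FPKM in the other 7. Its neighbour Hist2h3c2 did not switch, with 5.73, 4.55 and 4.44 FPKM in Ly6C tumor, 1.7, 1.9 and 1.43 FPKM in Ly6C spleen, 4.39, 4.26 and 5.63 FPKM in Ly6G tumor, and 1.63, 1.21 and 1.66 FPKM in Ly6G spleen. An exact 0 in a file without counts can be a failed estimate, and whether that holds here was not tested. The sums that follow here are given without Hist2h2aa1. Its call in the spleen stays in the counts, where it is named.

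**Figure D2:**
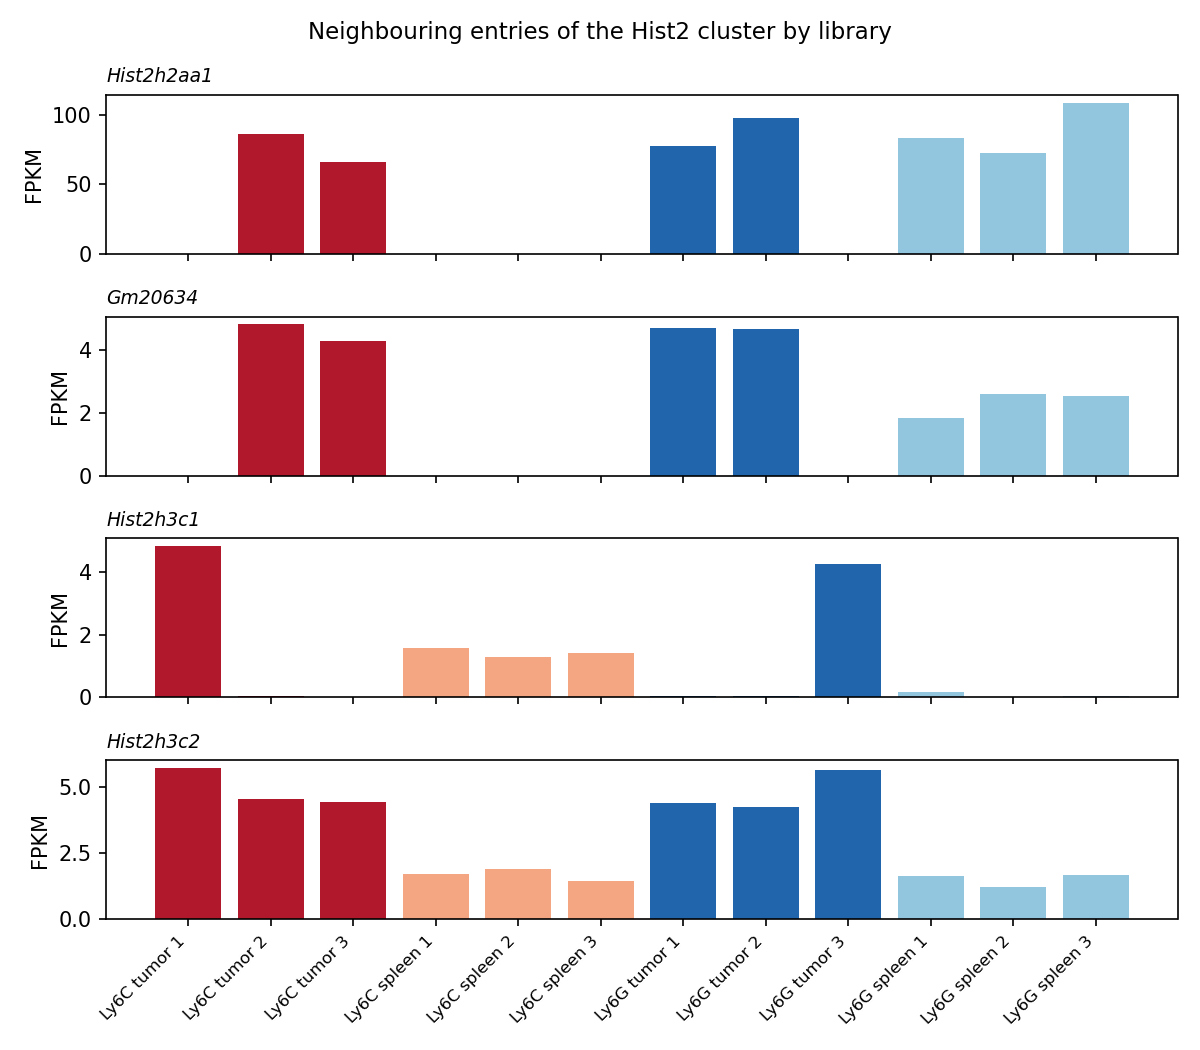
FPKM of 4 neighbouring entries of the Hist2 cluster in each of the 12 libraries (bars from 0, each panel with its own axis). Hist2h2aa1 and Gm20634 are at 0 in the 5 libraries in which Hist2h3c1 is above 1 FPKM, and Hist2h3c2 is present in all 12.

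The sum over the other 69 genes was 444, 481 and 399 FPKM in Ly6C tumor and 395, 321 and 254 FPKM in Ly6C spleen. It was 473, 463 and 432 FPKM in Ly6G tumor and 322, 229 and 341 FPKM in Ly6G spleen. Hist1h1c was the largest part of it in every library. Without Hist1h1c and Hist1h2bc the sum was 142 to 184 FPKM in Ly6C tumor, 124 to 173 in Ly6C spleen, 153 to 181 in Ly6G tumor and 92.9 to 116 in Ly6G spleen. The Ly6C groups then overlapped, and every Ly6G spleen library lay below every library of the other groups. These sums, and those by class below, are of FPKM without further scaling. Under median-of-ratios factors the mean sum of all 70 genes was 477 FPKM in Ly6G spleen and 446 in Ly6G tumor, so the order depends on the scaling.

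By class, the H3 genes summed to 19.0 ± 4.66 FPKM in Ly6C tumor and 19.0 ± 3.63 in Ly6C spleen, and to 18.5 ± 1.44 in Ly6G tumor and 7.91 ± 1.4 in Ly6G spleen (SD, n = 3 each). The H4 genes summed to 34.5 ± 2.11 FPKM in Ly6C tumor and 34.9 ± 4.06 in Ly6C spleen, and to 44.0 ± 2.81 in Ly6G tumor and 31.1 ± 5.21 in Ly6G spleen. H2B genes summed to 125 ± 14.1 FPKM in Ly6C tumor and 67.0 ± 12.6 in Ly6C spleen, and to 104 ± 12.9 in Ly6G tumor and 62.8 ± 11.6 in Ly6G spleen. In these sums H2B was the class whose tumor libraries lay above the spleen libraries under both labels. H1, H2A, H3 and H4 did so under Ly6G and overlapped under Ly6C. With copies of 1 protein summed, the 13 H4 genes are 1 entry and the 12 H3 genes 2. The Ly6C change minus the Ly6G change was -0.51 for the H4 entry (limma, adjusted p = 0.0828). It was -1.11 and -1.05 for the H3 entries (adjusted p = 0.0108 and 0.0255), the latter with the switching Hist2h3c1. These entries were not tested under other scalings, and H1 and H2A were not tested as class sums.

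**Figure D3:**
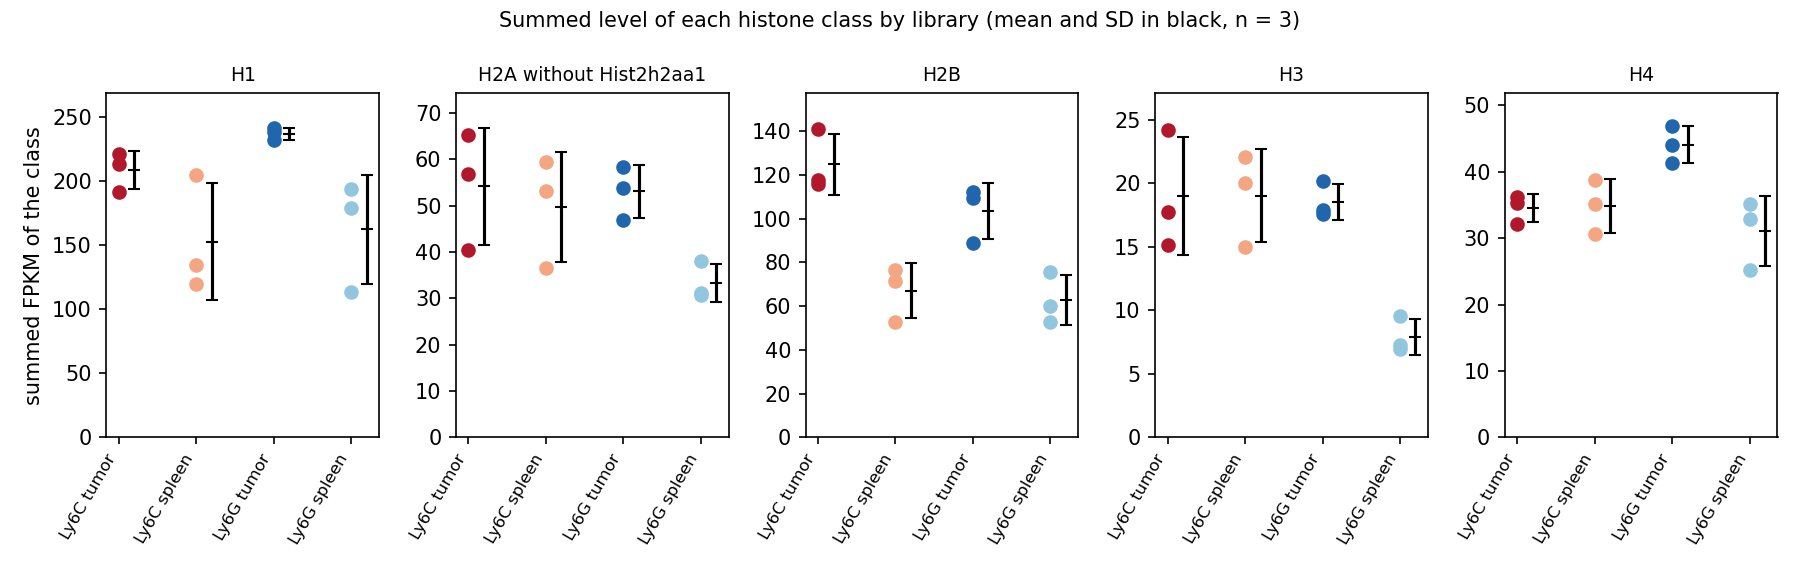
Summed FPKM of each histone class in each library, axes from 0, with the mean and SD of each group (n = 3) in black; H2A is without Hist2h2aa1. The 3 Ly6G spleen libraries are the lowest for H3, and the tumor libraries are above the spleen libraries of the same label for H2B.

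Between Ly6C tumor and Ly6C spleen, clustered histone genes moved in both directions. Of the 53 tested, 25 passed, against 76.7% of all 13610 genes (limma, Benjamini-Hochberg adjusted p under 0.05). Of these, 15 were higher in Ly6C tumor, against 46.2% of all genes, and 10 were lower, against 30.5% of all genes. The median change was 0.20 for the histone genes and 0.27 for all genes. H2B genes supplied 8 of the 15 rises, with 3 of 13 lower. H2A had 2 of 16 higher and 3 lower, H3 1 of 10 higher and 3 lower, H4 3 of 10 higher and 1 lower, and H1 1 of 4 higher and none lower (none at an unadjusted p under 0.05). The split moved with scaling. Median-of-ratios factors gave 13 higher and 15 lower, against 40.3% and 36.8% of all genes. Quantile normalization gave 11 and 16, against 39.5% and 37.6% of all. An equal sum without S100a8 and S100a9 gave 11 and 15, against 37.2% and 38.8% of all. Scaling to pan-leukocyte genes gave 51 and 1, against 90.3% and 3.94% of all. Without Ly6C spleen 3 it was 14 and 14, against 43.4% and 29.8% of all.

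The rises in Ly6C tumor after Hist1h2bc were Hist1h2bq and Hist1h2bk, both H2B genes. Hist1h2bq had 2.91, 4.24 and 2.72 FPKM in Ly6C tumor and 0.471, 0.53 and 0.48 FPKM in Ly6C spleen (1.51 ± 0.18, adjusted p = 1.188e-05). Hist1h2bk had 5.55, 7.85 and 5.36 FPKM in Ly6C tumor and 2.11, 2.21 and 1.07 FPKM in Ly6C spleen (1.39 ± 0.21, adjusted p = 7.666e-05). The groups did not overlap for either gene. Only 5.43% of the 100-base stretches of Hist1h2bq are its own, and how much of its level belongs to other copies was not tested.

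The largest fall was that of Hist1h4i (ENSMUSG00000060639, chr13:22040636-22041362), an H4 gene with 84.9% of its stretches its own. It had 4.11, 2.18 and 2.8 FPKM in Ly6C tumor and 17.5, 13.7 and 13.5 FPKM in Ly6C spleen, groups that lay far apart (-2.0 ± 0.18, adjusted p = 7.816e-07). Hist1h2bj (H2B) followed with 1.21, 1.77 and 1.17 FPKM in Ly6C tumor and 4.61, 4.51 and 4.16 FPKM in Ly6C spleen (-1.20 ± 0.20, adjusted p = 0.0001585). Hist1h2ag (H2A), which starts 269 bases from Hist1h2bj on the other strand, had 1.02, 1.24 and 1.48 FPKM in Ly6C tumor and 4.16, 6.07 and 2.46 FPKM in Ly6C spleen (-1.16 ± 0.24, adjusted p = 0.000768). Under 50% of the 100-base stretches of Hist1h2ag are its own. The divergent pair and Hist1h4i lie within a part of chromosome 13 that also holds Hist1h2bk, which was higher. Under pan-leukocyte scaling all 3 falls turn into rises of 1.15 to 1.47, below the median of all genes under it (3.06).

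Between Ly6G tumor and Ly6G spleen, more genes rose than fell. Of the 53 genes, 36 passed, against 76.2% of all genes. Of these, 32 were higher in Ly6G tumor, against 51.5% of all genes, and 4 were lower, against 24.7% of all. The median change was 0.64 for histone genes and 0.43 for all genes. All 4 tested H1 genes were higher, as were 9 of 16 H2A, 8 of 13 H2B, 5 of 10 H3 and 6 of 10 H4 genes. Falls were 2 H2A, 1 H2B and 1 H4 gene, with none in H1 and H3 (none at an unadjusted p under 0.05 either). The share higher, 60.4% against 51.5% of all genes, was not above that of all genes under every scaling. Median-of-ratios factors gave 19 of 53 higher and 6 lower, against 39.5% and 36.2% of all genes. Quantile normalization gave 13 and 7, against 38.6% and 36.7% of all. An equal sum gave 37 and 3, against 59.9% and 18.8% of all, and pan-leukocyte scaling 49 and 1, against 87.5% and 4.28% of all. Under median-of-ratios factors the median of all genes was 0.05 in both tissue comparisons, and under pan-leukocyte scaling it was 3.06 in Ly6C and 2.10 in Ly6G.

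Hist1h2ad (H2A) rose most, with 8.1, 6.54 and 4.62 FPKM in Ly6G tumor and 1.94, 0.898 and 1.12 FPKM in Ly6G spleen (1.68 ± 0.25, adjusted p = 6.616e-05). Hist1h4m (H4) had 8.42, 7.1 and 7.17 FPKM in Ly6G tumor and 1.92, 1.95 and 2.42 FPKM in Ly6G spleen (1.47 ± 0.12, adjusted p = 5.327e-07). Hist1h2bk had 4.94, 4.96 and 2.91 FPKM in Ly6G tumor and 1.19, 1.16 and 1.01 FPKM in Ly6G spleen (1.29 ± 0.21, adjusted p = 0.0001446). For each of the 3 genes every tumor library lay above every spleen library. Under 50% of the stretches of Hist1h2ad are its own, and with copies of 1 protein summed its entry of 9 H2A genes rose by 0.88 (adjusted p = 0.00233). Only 11.9% of the stretches of Hist1h4m are its own, and its near neighbour Hist1h4n moved alike (1.28 ± 0.15, adjusted p = 7.686e-06).

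The falls in Ly6G tumor were Hist3h2ba, Hist1h2af, Hist1h4i and Hist1h2ag. Hist3h2ba (H2B, chromosome 11) was listed at 0 in all 3 Ly6G tumor libraries and had 2, 1.85 and 1.6 FPKM in Ly6G spleen (adjusted p = 1.593e-05). In Ly6C it was at 0, 0 and 0.0421 FPKM in tumor and at 1.61, 1.62 and 0.459 FPKM in spleen (-1.08 ± 0.19, adjusted p = 0.000204). Its cluster neighbour Hist3h2a (H2A) ran the other way, with 16.9, 17.6 and 13 FPKM in Ly6G tumor and 7.06, 5.23 and 7.09 FPKM in Ly6G spleen. That change was 1.17 ± 0.45 (adjusted p = 0.0317) and was lost with no filter, median-of-ratios factors or quantile normalization (adjusted p = 0.0718 to 0.154) and without Ly6G tumor 1 or 2 or any 1 Ly6G spleen library (adjusted p = 0.0516 to 0.0896). Hist3h2a shares a strand and part of its span with Trim17.

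Hist1h2af (H2A) had 2.19, 2.28 and 1.87 FPKM in Ly6G tumor and 7.78, 3.56 and 5.57 FPKM in Ly6G spleen (-1.04 ± 0.22, adjusted p = 0.000871). Hist1h4i had 6.77, 7.1 and 8.46 FPKM in Ly6G tumor and 14.9, 13.2 and 17.2 FPKM in Ly6G spleen (-0.93 ± 0.18, adjusted p = 0.000474). The groups of both genes did not overlap. Both falls become rises under pan-leukocyte scaling (0.82 and 1.32), below the median of all genes under it (2.10).

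Across the tissue comparisons, which share no library, 14 histone genes were higher in tumor under both labels and 3 were lower under both (Hist3h2ba, Hist1h4i and Hist1h2ag). Of all genes, 41.6% were higher under both and 21.5% lower under both. Another 16 histone genes (30.2%), against 8.31% of all genes, were higher under Ly6G without passing under Ly6C, among them Hist1h1b, Hist1h1e, Hist1h3b, Hist1h3d, Hist1h3e and Hist1h3i. Passing under 1 label alone is not a test of a difference between labels. Of these 16 genes, only Hist1h2ah, Hist1h2aj and Hist1h3e passed the direct test of that difference, given below. Under neither label did 11 genes pass (20.8%, against 12.02% of all). Of the 15 divergent pairs whose starts lie within 1000 bases of each other, some hold a gene that was not tested. Hist1h2bl and Hist1h2ai rose together under both labels (0.86 and 0.94 in Ly6C, 1.001 and 0.95 in Ly6G). So did Hist1h2bf and Hist1h2ad (0.38 and 0.80 in Ly6C, 0.36 and 1.68 in Ly6G). In the pair Hist1h2ac and Hist1h2bc, the H2A gene changed by 0.10 in Ly6C (adjusted p = 0.532) while its H2B partner rose by 1.88.

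**Figure D4:**
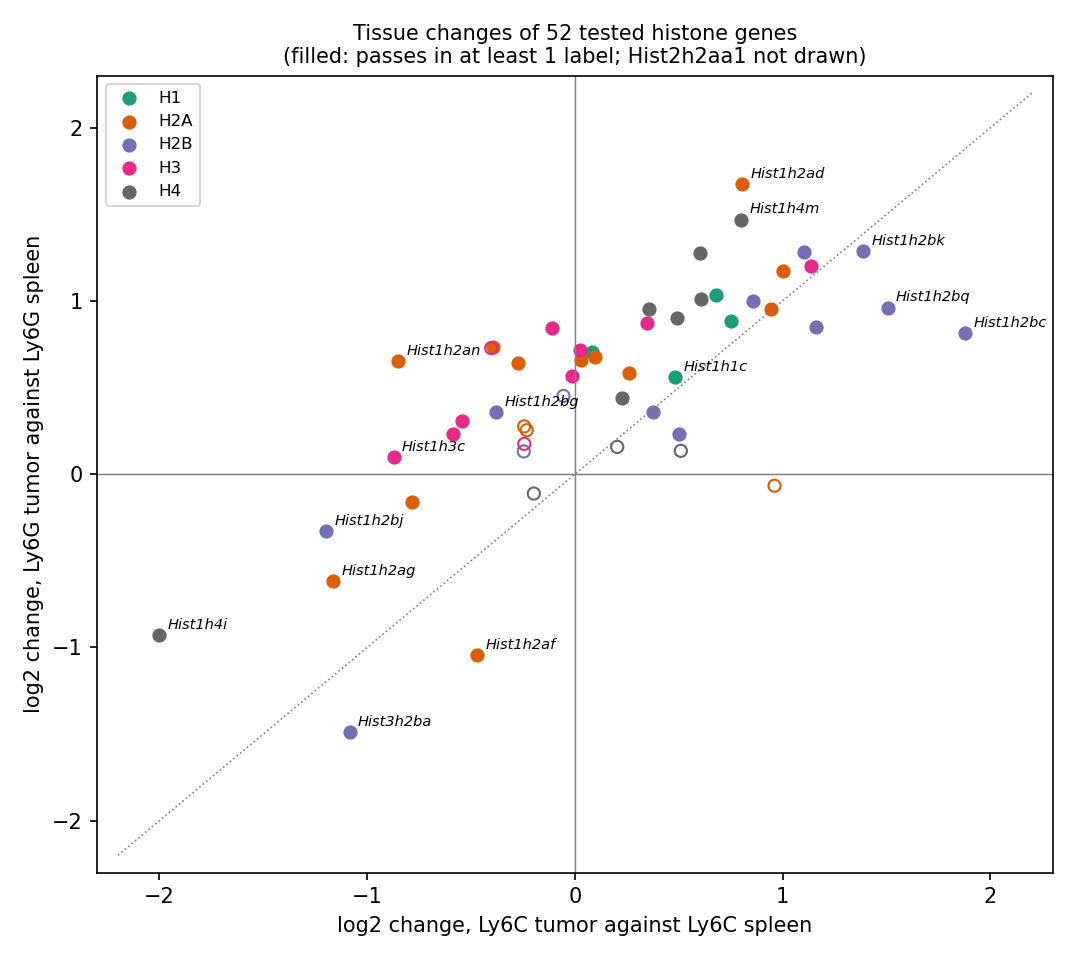
Change in log2(FPKM + 1) between tumor and spleen in Ly6C (horizontal) and Ly6G (vertical) for 52 tested histone genes, coloured by class, with filled points for genes that pass under at least 1 label. The dotted line marks equal changes; Hist1h4i is lowest in Ly6C at -2.0, Hist1h2bc highest at 1.88, and most H3 points lie above the line.

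Among other abundant copies, Hist1h2ae (H2A) averaged 4.97 ± 0.18 FPKM in Ly6C tumor and 4.09 ± 1.23 in Ly6C spleen, and 3.51 ± 0.46 in Ly6G tumor and 2.06 ± 0.68 in Ly6G spleen. Hist1h3e (H3) averaged 1.92 ± 0.19 FPKM in Ly6C tumor and 1.90 ± 0.50 in Ly6C spleen, and 1.99 ± 0.35 in Ly6G tumor and 0.821 ± 0.18 in Ly6G spleen. Hist1h4k (H4) averaged 4.56 ± 1.32 FPKM in Ly6C tumor and 3.25 ± 0.18 in Ly6C spleen, and 5.60 ± 0.52 in Ly6G tumor and 2.54 ± 1.27 in Ly6G spleen. All 3 passed under Ly6G and not under Ly6C, and under quantile normalization none passed in Ly6G (adjusted p = 0.0987 to 0.853). The Ly6G call of Hist1h2ae was also lost under median-of-ratios factors (adjusted p = 0.309) and without Ly6G tumor 2 or Ly6G spleen 2 (adjusted p = 0.0629 and 0.0791). Hist1h4k passed in Ly6C without Ly6C tumor 1 (adjusted p = 0.0442). The direct test of the difference between labels passed for Hist1h3e (-0.69, adjusted p = 0.0298). It was lost without Ly6C tumor 3, Ly6C spleen 1, Ly6G tumor 1 or 2, or Ly6G spleen 2 or 3 (adjusted p = 0.057 to 0.0731), and with no filter, median-of-ratios factors or quantile normalization (adjusted p = 0.0604 to 0.0846).

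The difference of the tissue effects was tested directly as the Ly6C change minus the Ly6G change. It passed below 0 for 11 histone genes, against 15.8% of all genes, and above 0 for 1, against 6.02% of all. The gene above 0 was Hist1h2bc (1.06 ± 0.32, adjusted p = 0.0360), and without any of 9 single libraries its adjusted p was 0.0502 to 0.0802. The 11 below 0 were spread over H2A, H2B, H3 and H4, with 3 of 10 H3 genes among them and no H1 gene (1 at an unadjusted p under 0.05). In either direction 12 of 53 passed, against 21.8% of all genes. Leaving out Ly6C tumor 3 left 4 genes below 0, against 11.7% of all genes. Leaving out both tumor libraries of highest mitochondrial share (Ly6C tumor 3, 7.84%, and Ly6G tumor 3, 11.9%) left 3, against 8.28% of all.

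Hist1h2an and Hist1h2bg, 2 of 53 (3.77%, against 1.80% of all genes), passed in opposite directions. Hist1h2an (H2A) had 2.14, 2.23 and 1.49 FPKM in Ly6C tumor and 4.87, 5 and 3.21 FPKM in Ly6C spleen, a change of -0.85 ± 0.18 (adjusted p = 0.00102). It had 2.28, 1.87 and 2.88 FPKM in Ly6G tumor and 1.44, 1.15 and 0.793 FPKM in Ly6G spleen, a change of 0.65 ± 0.18 (adjusted p = 0.00586) that was lost under median-of-ratios factors and quantile normalization (adjusted p = 0.099 and 0.488). The tumor levels of the 2 labels overlapped and the spleen levels did not. The difference of -1.50 ± 0.26 passed (adjusted p = 0.00266). The other gene, Hist1h2bg, changed by -0.38 ± 0.15 in Ly6C (adjusted p = 0.0322) and by 0.36 ± 0.15 in Ly6G (adjusted p = 0.0405). Neither call held without some single libraries: Ly6C tumor 1 or 3 or Ly6C spleen 1 or 2 for Ly6C (adjusted p = 0.0809 to 0.138), and Ly6C tumor 3, Ly6G tumor 1 or 2, or Ly6G spleen 2 or 3 for Ly6G (adjusted p = 0.0525 to 0.146). Median-of-ratios factors turned the Ly6G change of Hist1h2bg to -0.13. Pan-leukocyte scaling, with the median of all genes at 3.06, turned the Ly6C changes of both genes into rises. Under 50% of the stretches of Hist1h2an are its own. With copies of 1 protein summed, its entry of 9 H2A genes changed by 0.03 in Ly6C and 0.88 in Ly6G (limma, adjusted p = 0.907 and 0.00233). The entry of Hist1h2bg, Hist1h2bc and Hist1h2be rose under both labels (0.96 and 0.68, adjusted p = 0.000549 and 0.00567). Neither summed entry thus passed in opposite directions.

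Between the labels in spleen, more clustered histone genes were higher than lower in Ly6C, and most did not pass. Of the 53, 19 were higher in Ly6C spleen, against 22.1% of all genes, and 3 were lower, against 8.59% of all. The switching gene Hist2h2aa1 is 1 of these 3, which leaves 2 without it. The median change was 0.37 for histone genes and 0.11 for all genes. The rises took in 7 of 10 H3 genes, 8 of 16 H2A, 3 of 13 H2B and 1 of 4 H1 genes, and none of 10 H4 genes (1 at an unadjusted p under 0.05). Without Ly6C spleen 3 the count of rises was 24, against 23.2% of all genes, and without Ly6C spleen 1 it was 13, against 19.2% of all. With 2 groups in the fit it was 11, against 13.5% of all, and under pan-leukocyte scaling it was 0, against 0.999% of all. Higher and lower calls were 16 and 7 under median-of-ratios factors, against 14.1% and 15.8% of all genes, and 16 and 7 under quantile normalization, against 15.1% and 13.1% of all. With equal sums they were 27 and 1, against 39.5% and 4.17% of all, and without S100a8 and S100a9 in the sums 24 and 1, against 30.4% and 6.56% of all.

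Hist1h2an was the largest rise in Ly6C spleen (1.33 ± 0.18, adjusted p = 0.000418), followed by the pseudogene Hist1h2aj with 4.6, 4.24 and 3.31 FPKM in Ly6C spleen and 2.51, 1.23 and 1.24 FPKM in Ly6G spleen (0.95 ± 0.18, adjusted p = 0.00223). Hist1h2bg came next (0.94 ± 0.15, adjusted p = 0.000814). Only 8.3% of the stretches of Hist1h2aj are its own. Among H3 genes, Hist1h3i had 2.64, 2.2 and 2.23 FPKM in Ly6C spleen and 0.937, 1.18 and 0.304 FPKM in Ly6G spleen (0.92 ± 0.23, adjusted p = 0.00971). Hist1h3c had 3.32, 3.83 and 1.54 FPKM in Ly6C spleen and 0.891, 0.956 and 1.23 FPKM in Ly6G spleen (0.90 ± 0.23, adjusted p = 0.0129). The groups did not overlap for these genes.

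The 3 genes lower in Ly6C spleen were Hist1h2bc (-0.71 ± 0.23, adjusted p = 0.0347), Hist1h2af (-0.68 ± 0.22, adjusted p = 0.0325, groups overlapping) and Hist2h2aa1, which was listed at 0 in all Ly6C spleen libraries as described above. The call of Hist1h2bc was lost without Ly6C spleen 3, Ly6G spleen 1 or Ly6G spleen 3 (adjusted p = 0.0527 to 0.121). Without Ly6G spleen 1 or 3 the count of lower genes was 1.

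Marker lists of other cells moved with the spleen comparison. All 11 erythroid, 10 B cell and 5 tested T cell markers were lower in Ly6C spleen, against 8.59% of all genes. The erythroid list summed to 323 to 1179 FPKM in Ly6C spleen and 1481 to 4200 in Ly6G spleen, and the B cell list to 254 to 391 and 748 to 1297 FPKM in the same order. Of 8 neutrophil precursor markers 5 were higher in Ly6C spleen, with the list at 918 to 1225 FPKM there and 386 to 527 in Ly6G spleen. Of 9 monocyte markers 6 were higher. The share of all genes higher in Ly6C spleen was 22.1%. No erythroid or B cell marker was at 0 in all libraries of either spleen group. The part of these lists in the histone differences was not tested.

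Between the labels in tumor, 2 histone genes were lower in Ly6C tumor, against 8.70% of all genes, and none was higher, against 5.80% of all (limma; 2 higher and 4 lower at an unadjusted p under 0.05). Both were H4 genes. Hist1h4i was at 2.18 to 4.11 FPKM in Ly6C tumor and 6.77 to 8.46 in Ly6G tumor (-1.09 ± 0.18, adjusted p = 0.00392). Hist1h4m was at 4.72 to 5.81 FPKM in Ly6C tumor and 7.1 to 8.42 in Ly6G tumor (-0.46 ± 0.12, adjusted p = 0.0327). Neither gene's groups overlapped. The Hist1h4m call was lost without any 1 of Ly6C tumor 2 or 3 and Ly6G tumor 1, 2 or 3 (adjusted p = 0.0587 to 0.118), and without both libraries of highest mitochondrial share neither gene passed, as against 1.84% of all genes lower.

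**Figure D5:**
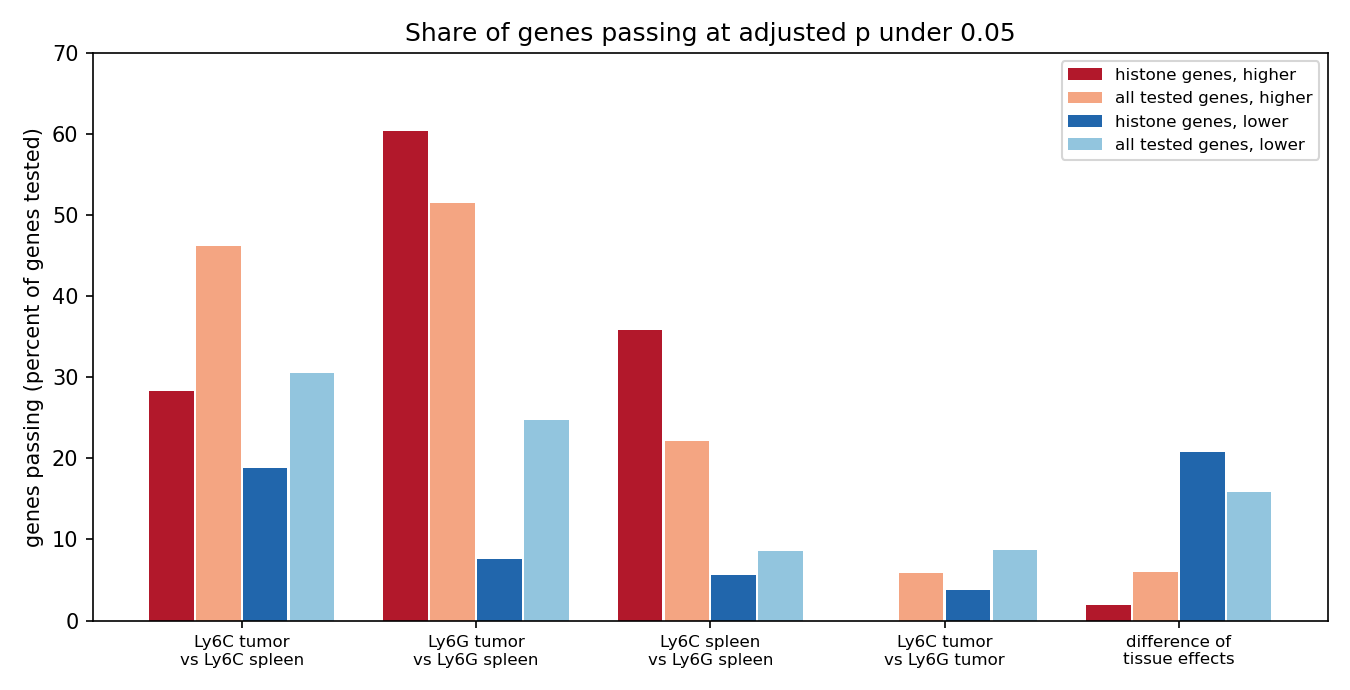
Percent of the 53 tested clustered histone genes (dark) and of all 13610 tested genes (light) that pass higher or lower in each of the 5 comparisons; bars start at 0. In Ly6G tumor against Ly6G spleen 60.4% of histone genes and 51.5% of all genes are higher, and in Ly6C tumor against Ly6C spleen 28.3% and 46.2%.

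Lists of genes around the clustered histones are given by the same test. Of 17 tested genes for histone transcription and pre-mRNA processing, 5 were higher and 2 lower in Ly6C tumor than in Ly6C spleen. That was 29.4% and 11.8%, against 46.2% and 30.5% of all genes. In Ly6G tumor 10 were higher and 3 lower than in Ly6G spleen (58.8% and 17.65%, against 51.5% and 24.7% of all). In Ly6C spleen 9 were higher and none lower than in Ly6G spleen (52.9% higher, against 22.1% higher and 8.59% lower of all). Slbp, the stem-loop binding protein, had 4.66, 4.99 and 4.7 FPKM in Ly6C tumor and 7.79, 8.09 and 8.42 FPKM in Ly6C spleen (-0.65 ± 0.09, adjusted p = 2.92e-05). It had 4.85, 5.14 and 4.63 FPKM in Ly6G tumor and 6.59, 6.19 and 6.31 FPKM in Ly6G spleen (-0.33 ± 0.09, adjusted p = 0.00523). It was lower in tumor under both labels, in groups that did not overlap, and these falls become rises under pan-leukocyte scaling. Npat, the coactivator of the clusters, rose in Ly6G tumor (0.66 ± 0.13, adjusted p = 0.000644) and changed by 0.13 ± 0.13 in Ly6C (adjusted p = 0.384). Sympk, the scaffold symplekin of the cleavage complex, rose by 1.35 ± 0.14 in Ly6G tumor (adjusted p = 3.53e-06). Cpsf3, the endonuclease that cleaves the histone pre-mRNA, rose under both labels (1.23 ± 0.12 in Ly6C, 0.82 ± 0.12 in Ly6G, adjusted p = 1.28e-06 and 4.36e-05).

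The largest changes of that list were the rises of Zc3h8, a subunit of the little elongation complex (2.34 ± 0.16 in Ly6C, 1.86 ± 0.16 in Ly6G), and the falls of Srrt, the cap-binding partner Ars2, in Ly6C (-0.84 ± 0.12) and of Ncbp1, a cap-binding subunit, in Ly6G (-0.48 ± 0.11). The falls become rises under pan-leukocyte scaling, which moves the median of all genes to 3.06 in Ly6C and 2.10 in Ly6G.

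Of 22 histone chaperones, 9 were higher and 5 lower in Ly6C tumor (40.9% and 22.7%, against 46.2% and 30.5% of all genes). In Ly6G tumor 12 were higher and 1 lower (54.55% and 4.545%, against 51.5% and 24.7% of all). In Ly6C spleen 13 were higher and none lower than in Ly6G spleen (59.1% higher, against 22.1% higher and 8.59% lower of all). Npm1, nucleophosmin, rose under both labels (3.51 ± 0.20 in Ly6C, 2.56 ± 0.20 in Ly6G, adjusted p = 1.92e-08 and 2.90e-07). Asf1b, the H3-H4 chaperone of dividing cells, fell under both (-1.49 ± 0.16 and -0.73 ± 0.16, adjusted p = 4.64e-06 and 0.00139), and Chaf1a, a subunit of the replication-coupled assembly factor CAF-1, rose in Ly6G tumor (1.32 ± 0.12, adjusted p = 1.22e-06).

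Cell cycle genes were taken by phase. Of 40 genes for DNA replication and S phase, when clustered histone genes are transcribed, 16 were higher and 14 lower in Ly6C tumor. That was 40% and 35%, against 46.2% and 30.5% of all genes. In Ly6G tumor 24 were higher and 7 lower (60% and 17.5%, against 51.5% and 24.7% of all). In spleen, 34 were higher and none lower in Ly6C (85% higher, against 22.1% higher and 8.59% lower of all). Of 22 genes of G2 and mitosis, 1 was higher and 21 lower in Ly6C tumor (4.545% and 95.45%, against 46.2% and 30.5% of all). In Ly6G tumor 2 were higher and 12 lower (9.09% and 54.55%, against 51.5% and 24.7% of all). All 22 were higher in Ly6C spleen than in Ly6G spleen, against 22.1% of all genes. Mki67, the proliferation marker Ki-67, had 4.53, 6.71 and 6.84 FPKM in Ly6C tumor and 30.2, 30.9 and 33.3 FPKM in Ly6C spleen (-2.23 ± 0.17, adjusted p = 1.88e-07). It had 4.96, 6.02 and 5.39 FPKM in Ly6G tumor and 20.9, 17.1 and 13.7 FPKM in Ly6G spleen (-1.48 ± 0.17, adjusted p = 6.79e-06). Mki67 was thus lower in tumor under both labels, in groups that did not overlap. It was higher under pan-leukocyte scaling, which moves the median of all genes to 3.06 in Ly6C and 2.10 in Ly6G. E2f2, a transcription factor of the cycle, had the largest fall of the S-phase list (-4.68 ± 0.12 in Ly6C, -3.28 ± 0.12 in Ly6G), and Foxm1, a mitotic transcription factor, the largest rise in Ly6C spleen against Ly6G spleen (2.04 ± 0.11, adjusted p = 1.483e-05). Pcna, the sliding clamp of replication, changed by 0.05 ± 0.14 in Ly6C (adjusted p = 0.763) and by 0.15 ± 0.14 in Ly6G (adjusted p = 0.353), and by 0.62 ± 0.14 in Ly6C spleen against Ly6G spleen (adjusted p = 0.00755).

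Histone genes outside the clusters, most of which give polyadenylated messages through the whole cycle, were taken separately. Of 12 tested, 4 were higher and 7 lower in Ly6C tumor (33.3% and 58.3%, against 46.2% and 30.5% of all genes). In Ly6G tumor 2 were higher and 5 lower (16.7% and 41.7%, against 51.5% and 24.7% of all). In Ly6C spleen 6 were higher and none lower (50% higher, against 22.1% higher and 8.59% lower of all). H1f0, the linker histone of non-dividing cells, rose most in Ly6G tumor, with 249, 208 and 210 FPKM there and 42.1, 10.1 and 9.75 FPKM in Ly6G spleen (3.69 ± 0.54, adjusted p = 6.24e-05). H2afx, the variant phosphorylated at DNA breaks, had 68.4, 57.1 and 59.4 FPKM in Ly6C tumor and 346, 251 and 209 FPKM in Ly6C spleen (-2.08 ± 0.23, adjusted p = 5.07e-06). H2afz, the H2A.Z gene, fell under both labels (-1.10 ± 0.14 and -1.22 ± 0.14, adjusted p = 2.3e-05 and 1e-05). H3f3b, a gene of the replacement histone H3.3, changed by -0.56 ± 0.16 in Ly6C (adjusted p = 0.00643) and by -0.25 ± 0.16 in Ly6G (adjusted p = 0.161, and 0.0442 without Ly6G spleen 2). These falls become rises under pan-leukocyte scaling, which moves the median of all genes to 3.06 in Ly6C and 2.10 in Ly6G.

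Whether libraries were selected for poly(A) is not given in the sources used here, and it bears on messages that end in a stem-loop. Of 14 listed RNAs that carry no poly(A) tail, 8 were listed at 0 in every library of Ly6C tumor, 8 in Ly6C spleen, 7 in Ly6G tumor and 8 in Ly6G spleen, among them Rn7sk in all 12 libraries. The list summed to 6.95 to 19.1 FPKM in Ly6C tumor, 2.97 to 3.65 in Ly6C spleen, 12.6 to 12.8 in Ly6G tumor and 8.73 to 13.8 in Ly6G spleen. Rmrp, one of 2 that were tested, was higher in tumor under both labels (2.55 ± 0.23 and 1.71 ± 0.23, adjusted p = 8.55e-07 and 2.81e-05). The histone genes whose annotation runs more than 120 bases past the stop codon were higher in 7 of 21 cases and lower in 3 in Ly6C tumor, and higher in 16 and lower in 2 in Ly6G tumor. Those with shorter ends were higher in 8 of 31 and lower in 7 in Ly6C tumor, and higher in 15 and lower in 2 in Ly6G tumor. In spleen the longer ones were higher in Ly6C in 5 of 21 and the shorter ones in 13 of 31. Of all genes, 46.2% were higher and 30.5% lower in Ly6C tumor, and 51.5% and 24.7% in Ly6G tumor. In Ly6C spleen 22.1% of all genes were higher. The differences between genes with longer and shorter ends were not tested.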

How the data were processed

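The 12 mouse libraries were made from total RNA and read in pairs on an Illumina instrument, per the labels' protocols. Alignment and counting tools and build, per the submitters' processing notes, were HISAT2 2.0.5, featureCounts 1.5.0-p3 and GRCm38. Values in the deposited matrix are FPKM, one per gene and library, as the authors made them. The sources used here do not give the tool behind the FPKM, its annotation, the handling of multiply matching fragments, or any poly(A) selection. Depth is therefore unknown, and no counting interval was computed.

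Entries with an Ensembl identifier were named from GENCODE M21. The 570 other entries, 0.463% to 1.04% of FPKM per library, were left out. The 13610 genes reaching 1 FPKM in 3 or more of the 12 libraries were tested on log2(FPKM + 1) with 1 limma 3.58.1 model of 4 group means, with eBayes and a variance trend, in R 4.3.3. Tests were two-sided, Benjamini-Hochberg adjusted over all genes, with a threshold of 0.05. The model was tested on simulated data. Stem-loops came from GENCODE M21 transcripts and promoters from RefSeq (GRCm38.p6).

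Named are the 4 most abundant tested genes of each class, the 3 highest and 3 lowest passing changes without overlap in each comparison, genes passing in opposite directions, the extreme passing gene of each pathway list, and Slbp, Npat, Mki67, Pcna, H2afz, H2afx and H3f3b. Some genes the rule names are given in the counts alone. The testis histones, the Hist2 neighbours, Hist1h2bl with Hist1h2ai, Hist1h2bf with Hist1h2ad and the H3 genes listed by name were picked after their values were seen. The members and lists were chosen with earlier results of these data known. Alternatives were other pseudocounts, filters, scalings, fits and sums of copies, the replicate number as a block, and leaving out each library. Python 3.11.15, pandas 2.3.3, numpy 2.4.6 and matplotlib 3.10.9 were used.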

Additional observations from a re-analysis of the deposited data

Results flagged for a closer look

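The tissue effect differed between the labels for 12 clustered histone genes by the limma test of the difference (Ly6C change minus Ly6G change, adjusted p under 0.05), against 21.8% of all genes, a share near that of 12 of 53. It was -1.50 for Hist1h2an, -1.13 for Hist1h2ah, -1.07 for Hist1h4i, -0.92 for Hist1h2aj, -0.87 for Hist1h2bj and -0.85 for Hist1h3a. It was -0.82 for Hist1h3g, -0.74 for Hist1h2bg, -0.69 for Hist1h3e, -0.67 for Hist1h4n, -0.67 for Hist1h4m and 1.06 for Hist1h2bc. Those of Hist1h2an, Hist1h2ah, Hist1h4i and Hist1h3a passed with any 1 of the 12 libraries left out. The other 8 were lost without some: Hist1h4m without Ly6C tumor 3 (adjusted p = 0.0538), Hist1h2aj without any of 4 libraries (up to 0.0535), Hist1h2bg 5 (0.0611), Hist1h3e 6 (0.0731), Hist1h3g 8 (0.0942), Hist1h4n 8 (0.0901), Hist1h2bj 9 (0.102) and Hist1h2bc 9 (0.0802).

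Among genes of the accompanying lists, the difference passed for the cleavage scaffold Sympk (-1.07), the chaperones Npm1 (0.94) and Ubn1 (-1.31), the flap endonuclease Fen1 (-1.65), the mitotic transcription factor Foxm1 (-2.14), the linker histone gene H1fx (1.19), H2afx (-1.60) and Mki67 (-0.75). Npm1 was lost without any of 7 libraries (adjusted p up to 0.0774) and Mki67 without any of 9 (up to 0.0907).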

How the results depend on the processing

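Depth is unknown, so counting error could not be separated from the spread between libraries, and 3 libraries a group limit the rest. Of the named genes' outcomes under the alternatives, 3053 stayed on the same side of the threshold, 278 lost the call, 55 gained it and 45 reversed. Direction was compared only where the main or the alternative result passed. The 3053 include results that passed in neither, and fits without a library from outside the comparison. The cause was not tested. Counts below are of clustered histone genes higher and lower, with the share of all genes tested under the same setting in parentheses. With a filter at 5 FPKM, which tests fewer genes, they were 6 and 2 in Ly6C tumor against spleen (47% and 33.1%). They were 9 and 1 in Ly6G tumor against spleen (51.7% and 27.9%), 1 higher in Ly6C against Ly6G spleen (26.5%), and 4 below 0 for the difference (19.9%). With copies of 1 protein summed, also fewer entries, they were 6 and 3 (46.3% and 30.6%), 15 and 2 (51.5% and 24.7%), and 7 higher (22%) in the same order. The 6 include the summed entry of Hist2h2aa1 and Hist2h2aa2 (4.41, limma, adjusted p = 0.0238), which holds the switching gene. In Ly6C against Ly6G tumor 0 were lower (8.71%), and 0 and 4 passed for the difference (6.04% and 15.8%). Without a filter 0 were lower in spleen (4.2%), 1 lower in tumor (3.29%), and 0 and 7 passed for the difference (2.21% and 5.78%). A pseudocount of 0.1 gave 6 lower in spleen (8.54%) and 1 lower in tumor (9.16%), and one of 5 gave 1 higher in tumor (9.1%). Fits of 2 groups gave 11 higher in spleen (13.5%) and 1 higher in tumor (10.3%). Equal sums gave 1 lower in spleen (4.17%) and 0 and 22 for the difference (2.02% and 33.2%). Without S100a8 and S100a9 they gave 1 lower (6.56%), and 0 and 20 (3.47% and 27%). Median-of-ratios factors gave 19 higher in Ly6G tumor (39.5%), 7 lower in spleen (15.8%), and 2 and 3 for the difference (13% and 10%). Quantile normalization gave 16 lower in Ly6C tumor (37.6%), 13 and 7 in Ly6G tumor (38.6% and 36.7%) and 7 lower in spleen (13.1%). It gave 1 higher in tumor (8.13%) and 6 below 0 for the difference (11.2%). Pan-leukocyte scaling gave 51 and 1 (90.3% and 3.94%), 49 and 1 (87.5% and 4.28%), and 0 and 0 in spleen (0.999% and 0.617%). It gave 40 and 0 in tumor (76% and 0.794%), and 5 and 0 for the difference (25.4% and 0.375%). Without both tumor libraries of highest mitochondrial share, an alternative chosen after seeing the data, 0 were lower in tumor (1.84%). For the difference 0 and 3 then passed (2.13% and 8.28%).

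Leaving out 1 library at a time gave 14 to 19 higher (43.4% to 47.6% of all genes) and 8 to 14 lower (28.7% to 30.8%) in Ly6C tumor. In Ly6G tumor it gave 26 to 33 (48.7% to 52.3%) and 3 to 4 (22.9% to 25.2%). In spleen it gave 13 to 24 (17.3% to 23.2%) and 1 to 4 (6.23% to 8.5%). In tumor it gave 0 to 1 (0.58% to 9.14%) and 1 to 2 (4.64% to 10.1%). For the difference it gave 0 to 2 (3.73% to 8.05%) and 4 to 16 (11.7% to 15.4%). Mean summed levels of all 70 genes, Hist2h2aa1 included, then ranged over 454 to 516 FPKM in Ly6C tumor, 287 to 358 in Ly6C spleen, 491 to 556 in Ly6G tumor and 354 to 427.5 in Ly6G spleen. The same sums became 2406, 117, 1018 and 129 FPKM under pan-leukocyte scaling. Under median-of-ratios factors they were 429, 343, 446 and 477 FPKM in the same order, so Ly6G spleen then lay above Ly6G tumor. Without Hist2h2aa1 the unscaled Ly6G spleen sum was 297 FPKM.

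Deviations of same-numbered libraries had correlations of -0.36 to 0.279, and in no comparison were all 3 above 0.1. Nothing in the labels ties a replicate number to an animal. Deviations from means of 3 libraries cannot show whether same-numbered libraries share an animal or a batch. With the replicate number as a block, 17 and 10 (46.1% and 30.3% of all genes) and 32 and 4 (51.5% and 24.7%) passed between tissues. Between labels 19 and 2 passed in spleen (20.9% and 8.07%) and 0 and 2 in tumor (4.09% and 7.8%). For the difference 0 and 13 passed (5.3% and 14.8%).

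Pan-leukocyte scaling moved the median change of all genes to 3.06 in Ly6C and 2.10 in Ly6G tumor against spleen. It moved that median to 1.16 in Ly6C against Ly6G tumor and to 0.96 for the difference. A reversal under it is therefore shared by most genes with a modest fall. Pan-leukocyte scaling reversed these log2 changes. In Ly6C tumor against spleen they became 3.13 for Hist1h2bg, 1.47 for Hist1h2bj, 2.48 for Hist1h3i, 1.49 for Hist1h3c, 1.15 for Hist1h4i, 1.40 for Hist1h2ag, 1.92 for Hist1h2an, 2.65 for Srrt, 1.96 for Asf1b, 1.28 for Plk1, 1.53 for H2afx, 2.52 for Slbp, 1.16 for Mki67, 2.46 for H2afz and 3.06 for H3f3b. In Ly6G tumor against spleen they became 1.21 for Hist1h2bj, 1.32 for Hist1h4i, 0.82 for Hist1h2af, 1.86 for Ncbp1, 1.47 for Asf1b, 0.76 for Mki67, 1.24 for H3f3c, 1.71 for Slbp, 1.19 for H2afz, 1.96 for H2afx and 2.23 for H3f3b. In Ly6C against Ly6G tumor they became 0.67 for Hist1h4m, 0.39 for Ubn1, 0.54 for E2f2, 1.13 for Slbp, 0.93 for Npat and 0.90 for H3f3b. For the difference they became 0.22 for Hist1h2ah, 0.48 for Hist1h2aj, 0.26 for Hist1h2bj, 0.39 for Hist1h3a, 0.25 for Hist1h3g, 0.47 for Hist1h2bg, 0.61 for Hist1h3e, 0.49 for Hist1h4n, 0.49 for Hist1h4m, 0.24 for Sympk and 0.40 for Mki67. Median-of-ratios factors reversed Hist1h2bg to -0.13 and Pcna to -0.35 in Ly6G tumor against spleen.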
